A study of Mus musculus with 27 samples.

Results

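The 37 genes of the unfolded protein response and the heat shock chaperone families described here were taken by symbol from a table of 26264 gene symbols, and all 37 were found. That table writes symbols in lower case (hspa5, atf4, herpud1), and they are given here in the usual mouse form. They comprised 5 ER luminal and lectin chaperones, 3 ER protein disulfide isomerases, 6 ER co-chaperones and secreted ER stress proteins, 4 genes of ER-associated degradation, 4 sensors and transducers, 5 genes of the PERK-ATF4 branch, 8 cytosolic heat shock chaperones and 2 mitochondrial chaperonins. Of these, 36 had a mean of at least 1 FPKM (fragments per kilobase of gene length, scaled to library size) over the libraries and were tested, among 12976 tested genes in all. Trib3, a pseudokinase induced by ATF4, lay below that level at 0.164 to 0.627 FPKM.

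All mice were 5xFAD females of 16 weeks on a C57BL/6J background, a line that carries human APP with the Swedish, Florida and London mutations, driven in neurons by the Thy1 promoter, so every group including the vehicle group is transgenic. Each mouse received 500 nL into the parietal association cortex of 1 hemisphere, either vehicle (3% DMSO with a beta-cyclodextrin in saline) or the same vehicle with R33 or R55 at 10 mM, both thiophene thioureas used as retromer stabilizers. After 24 h a block of about 1 mm3 of cortex was taken around the injection site and from the contralateral hemisphere. RNA sequencing covered 4 vehicle mice (8 libraries), 5 R33 mice (9 libraries, mouse AE with the injected hemisphere only) and 5 R55 mice (10 libraries), 27 libraries of 14 mice in all.

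The unfolded protein response and the heat shock response are the 2 main programmes by which a cell adjusts its folding capacity. In the endoplasmic reticulum (ER), the sensors IRE1 (gene Ern1), ATF6 and PERK (gene Eif2ak3) are held by the chaperone BiP (gene Hspa5) and are released when unfolded proteins accumulate. They then raise ER chaperones and degradation factors through the transcription factors XBP1 and ATF6, and slow translation while favouring ATF4 and its target CHOP (gene Ddit3). In the cytosol and nucleus the heat shock factor HSF1 raises HSP70, HSP90, HSP40 and HSP110 chaperones when unfolded proteins occupy them. Neurons are rich in constitutive members of these families and are known for low levels of the inducible HSP70 genes.

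Libraries held 15932196 to 38077026 fragments on genes. Cortical excitatory neuron markers summed to 1205 to 2113 FPKM in every library and none of the 8 was at 0. The libraries differed in how values moved with gene length: Spearman's rho between gene length and a library's deviation from the mean ran from -0.70 to 0.41 across the 27. In 3 libraries the largest shares of tested genes lay over 0.25 log2 units from their mean: the injected hemisphere of R33 mouse AD (50.4%, rho -0.69), the contralateral hemisphere of R55 mouse Q (38.1%, rho -0.70) and the contralateral hemisphere of vehicle mouse J (31.1%, rho -0.14). Results that rest on them are given below with and without those 3 libraries. In such bulk tissue, fewer cells of a type and less RNA per cell cannot be told apart, and each hemisphere of a mouse entered the main test as a separate sample.

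RefSeq promoter windows on GRCm38.p6 (250 bases before to 50 after a start site) were matched by symbol for 31 of the 37 genes, and Hyou1, Atf6, Hsp90aa1, Manf, Hspa8 and Hsp90ab1 had none in the table. The ER stress response element, searched on both strands as CCAAT and CCACG separated by any 9 bases, is the site known to be bound by NF-Y and ATF6. It stood in the windows of 8 of the 31 genes (25.8%) against 37 of all 27025 genes with a window (0.137%). The 9 sites are shown because 8 of the ER genes share them. They are written 5′ to 3′ on the strand of the match, with the CCAAT and CCACG boxes in capitals and the spacer in lower case.
Hspa5, chr2:34772025-34772043: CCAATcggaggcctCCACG
Calr, chr8:84847075-84847093: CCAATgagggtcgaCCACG
Hsp90b1, chr10:86705638-86705656: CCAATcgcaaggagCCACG
Hsp90b1, chr10:86705533-86705551: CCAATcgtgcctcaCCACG
Canx, chr11:50325800-50325818: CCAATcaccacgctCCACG
Pdia6, chr12:17266491-17266509: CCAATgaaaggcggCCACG
Dnajc3, chr14:118937827-118937845: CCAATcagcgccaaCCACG
Creld2, chr15:88819520-88819538: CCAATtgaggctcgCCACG
Syvn1, chr19:6046532-6046550: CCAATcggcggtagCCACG

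These sites began 44 to 212 bases before the annotated start. They fell in 4 of the roles: 4 chaperones (Hspa5, Calr, Hsp90b1, Canx), 1 disulfide isomerase (Pdia6), 2 co-chaperones (Dnajc3, Creld2) and 1 degradation factor (Syvn1). No member of the ATF4 branch, the cytosolic chaperones or the chaperonins held an exact match, which says only that those letters are not in these windows. The 250 bases before the Hspa5 start, the classical promoter of this response, are shown whole with the element in capitals.
Hspa5, GRCm38.p6, plus strand, chr2:34771840-34772089: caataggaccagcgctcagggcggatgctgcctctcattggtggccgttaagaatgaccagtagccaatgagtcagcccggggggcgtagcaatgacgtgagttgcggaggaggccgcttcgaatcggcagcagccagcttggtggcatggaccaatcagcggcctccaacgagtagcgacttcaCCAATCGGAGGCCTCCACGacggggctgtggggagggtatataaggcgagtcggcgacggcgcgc

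The site read by the ATF4 branch, searched as TGATGNAA on both strands, stood in 4 of the 31 genes (Chac1, Trib3, Asns and Herpud1, 12.9%) against 4.51% of all genes with a window. Herpud1 is shown because it had the smallest p of all members in both drug comparisons. Its match to TGATGNAA, TTGCATCA on the printed strand, is in capitals, and no other kind of site is marked.
Herpud1, GRCm38.p6, plus strand, chr8:94386179-94386428: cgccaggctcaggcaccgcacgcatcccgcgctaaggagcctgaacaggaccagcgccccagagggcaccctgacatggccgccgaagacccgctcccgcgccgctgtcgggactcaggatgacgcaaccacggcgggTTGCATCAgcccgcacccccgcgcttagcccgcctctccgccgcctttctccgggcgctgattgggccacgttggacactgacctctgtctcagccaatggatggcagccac

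The heat shock element, searched on both strands as GAA, TTC and GAA with any 2 bases between each pair of neighbours, stood in the windows of Hspd1, Hspe1 and Hsph1 (9.68% of the 31) against 0.662% of all genes with a window. Hspd1 and Hspe1 encode HSP60 and its co-chaperonin HSP10 and lie head to head on chromosome 1. The 215 bases between 1 annotated start of Hspd1 and that of Hspe1 hold the element as 2 overlapping matches, in capitals, so that both genes have it upstream.
Hspd1 to Hspe1, GRCm38.p6, plus strand, chr1:55087933-55088147: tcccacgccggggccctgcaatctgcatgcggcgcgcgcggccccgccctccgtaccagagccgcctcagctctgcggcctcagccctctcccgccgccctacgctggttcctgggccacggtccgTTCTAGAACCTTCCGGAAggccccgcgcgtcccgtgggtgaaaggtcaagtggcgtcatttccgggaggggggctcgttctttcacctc

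Levels spanned a wide range, on the per-length FPKM scale and as means over 27 libraries. Hsp90ab1, the constitutive HSP90, was highest at 593 ± 43.0 FPKM (SD, n = 27), followed by the constitutive HSP70 Hspa8 at 340 ± 28.9 FPKM, the calcium-binding lectin chaperone Calr at 196 ± 24.2 FPKM, the inducible HSP90 Hsp90aa1 at 156 ± 15.1 FPKM and the ER HSP90 Hsp90b1 at 125 ± 14.9 FPKM. Each of these 5 stood above the next gene in 24 or more of the 27 libraries, and each step was wider than the spread of the 2 genes. Atf4 (97.3 ± 13.3 FPKM), Hspa5 (86.5 ± 12.1 FPKM), the glycoprotein disulfide isomerase Pdia3 (84.8 ± 10.4 FPKM), the lectin chaperone Canx (84.4 ± 8.96 FPKM) and the HSP110 Hsph1 (82.8 ± 6.70 FPKM) followed, and neighbours among these 5 did not differ beyond their spread.

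The lowest members were inducible or regulatory. Ern1 was at 1.56 ± 0.253 FPKM, the inducible HSP70 genes Hspa1b and Hspa1a at 2.36 ± 0.496 and 2.68 ± 0.485 FPKM, and the HSP70 co-chaperone Bag3 at 4.43 ± 0.828 FPKM. Hspa8 therefore exceeded either inducible HSP70 gene in every library, its lowest value being 271 FPKM and their highest 3.77 FPKM. Hspa1a and Hspa1b lie 9951 bases apart on chromosome 17 (GRCm39) and their coding sequences are identical at 1916 of 1926 aligned positions (99.5%). How fragments that match both were counted is not given in the sources used here, so their separate values are uncertain. Over all transcripts annotated on GRCm39, 10 of the 37 members shared at least 10% of their exon bases with another gene. Among them were Hspa5 (44.2% with Rabepk), Xbp1 (22.02% with Ccdc117) and Ddit3 (64.1% with Mars1), each on the opposite strand, and Manf (32.6% with Rbm15b) on the same strand. The gene lengths recovered from the FPKM values were shorter than the exon bases of all transcripts together. They were 2616 against 5554 bases for Hspa5, 2247 against 6931 for Xbp1, 871 against 5579 for Ddit3 and 868 against 12163 for Manf. These shares therefore need not hold for the transcripts that were counted. Whether counting used strand is not given, so how many reads of such partners were counted is not known.

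R55 was compared with vehicle to ask whether the compound moved these programmes. No member was called at an adjusted p under 0.05 with limma, where 0.00771% of tested genes (1 gene) were called, and limma with voom weights on the recovered fragments also called none of the members. Values leaned upward: 26 of 36 members were higher and 10 lower, against 60.2% of all tested genes higher, with a median log2 fold change of 0.08 against 0.03. At an unadjusted p under 0.05 there were 5 members higher and none lower, against 4.71% of tested genes higher and 3.74% lower. These were Herpud1, Creld2, Dnajb1, Sdf2l1 and Hspa1a. In either direction 8.45% of all tested genes were at that level, and their share is given in brackets for each other setting. The count of members was 12 without the 3 libraries named above (12.5% of tested genes), 14 without mouse J (12.9%) and 10 without mouse AD (12.8%). It was 3 without mouse AA (6.79%), without mouse AH (12.1%) and with the within-mouse correlation modelled (4%), and 2 with 1 value per mouse (3.39%). The median was 0.04 with the trend on gene length removed and 0.05 without vehicle mouse L.

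Without those 3 libraries, 11 members were higher at an unadjusted p under 0.05, against 7.79% of tested genes, and 1 was lower, against 4.72%. The 11 were Creld2, Dnajb1, Dnajb9, Herpud1, Hspa1b, Hspa5, Manf, Pdia3, Pdia4, Pdia6 and Sdf2l1, and the lower one was Sel1l. None of them was called then either, and Creld2 had the smallest adjusted p at 0.0845. The whole-table count of calls without those libraries was 22.

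**Figure D1:**
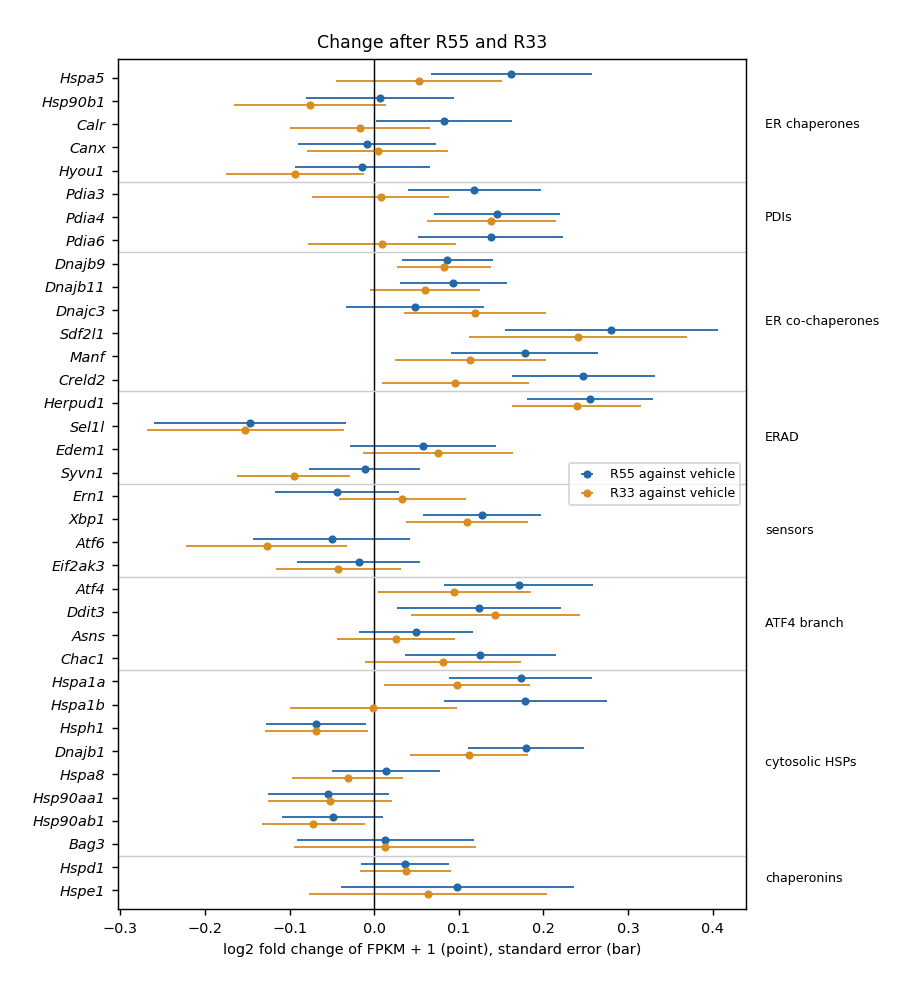
Log2 fold change of FPKM + 1 (horizontal axis) with its standard error (bar) for the 36 tested genes, grouped by role, for R55 (blue) and R33 (orange) against the same vehicle mice. The disulfide isomerases, the ER co-chaperones and the ATF4 branch lie to the right of 0 for both compounds, from 0.01 to 0.28, while the sensors lie on both sides of 0.

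By role, the 3 disulfide isomerases were all higher in R55 mice, by 0.12 to 0.14 on the log2 scale, the 6 ER co-chaperones and secreted proteins by 0.05 to 0.28, the 4 tested genes of the ATF4 branch by 0.05 to 0.17 and the 2 chaperonins by 0.04 and 0.10. Of the ER luminal and lectin chaperones 3 of 5 were higher, of ER-associated degradation 2 of 4, of the sensors and transducers 1 of 4 (Xbp1) and of the cytosolic chaperones 5 of 8. The 8 genes with an exact match to the ER stress response element had a median of 0.07, with 6 higher. The 22 tested genes with a window and no exact match had a median of 0.11, with 18 higher. Other spellings of the element were not searched, so genes without an exact match may still hold one. The 36 estimates with their errors are plotted by role for both compounds.

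Herpud1 encodes HERP, a membrane adaptor of the ER degradation machinery (chromosome 8, GRCm39, 95113022 to 95123141). Herpud1 read 30.4, 23.5, 28.8 and 28.3 FPKM in the contralateral hemispheres of vehicle mice AH, J, L and M, and 33.9, 30.4, 38.3 and 29.6 FPKM in their injected hemispheres. Herpud1 in R55 mice AA, AB, P, Q and R was at 34.0, 37.2, 39.5, 35.7 and 37.1 FPKM contralaterally and at 31.2, 33.1, 37.4, 36.4 and 41.1 FPKM on the injected side. All 5 contralateral R55 libraries lay above all 4 contralateral vehicle libraries, while the injected sides overlapped. How many of all tested genes separated in this way within 1 hemisphere was not counted. The log2 fold change was 0.26 ± 0.07 (SE), 1.19-fold, with adjusted p = 0.369 in limma. It was 0.21 with the length trend removed and 0.21 (adjusted p = 0.220) without the 3 libraries. By mouse, 4 of 5 R55 means lay above all 4 vehicle means, and with 1 value per mouse the adjusted p was 0.918.

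Creld2 encodes a secreted ER stress protein. Creld2 was at 9.02, 12.2, 7.53 and 10.1 FPKM in contralateral and 8.95, 11.2, 9.56 and 9.32 FPKM in injected hemispheres of vehicle mice AH, J, L and M. Creld2 in R55 mice AA, AB, P, Q and R was at 10.9, 11.6, 9.80, 16.1 and 10.5 FPKM contralaterally and 12.9, 11.9, 10.8, 11.4 and 11.5 FPKM on the injected side. Vehicle mice J and M contralaterally and J on the injected side lay within the R55 range, and the contralateral library of mouse Q stood above the rest. The log2 fold change was 0.25 ± 0.08 (adjusted p = 0.545), 0.18 with the length trend removed and 0.24 (adjusted p = 0.0845) without the 3 libraries.

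Sdf2l1, an ER cofactor of BiP and its J proteins, had the highest fold change of the members. Sdf2l1 was at 9.49, 14.8, 9.39 and 8.95 FPKM in contralateral and 11.8, 13.99, 9.33 and 11.1 FPKM in injected hemispheres of vehicle mice AH, J, L and M. Sdf2l1 in R55 mice AA, AB, P, Q and R was at 12.7, 14.2, 11.4, 14.4 and 12.3 FPKM contralaterally and 18.8, 15.6, 10.7, 10.6 and 16.3 FPKM on the injected side. Contralaterally the R55 values lay above those of all vehicle mice but J, and on the injected side mice P and Q lay within the vehicle range. The difference was 0.28 ± 0.13 on the log2 scale (adjusted p = 0.572), 0.20 with the length trend removed, 0.40 without mouse J and 0.33 (adjusted p = 0.190) without the 3 libraries. Between mice with 1-letter labels it was 0.16, and between those with 2-letter labels, among which only AH had vehicle, it was 0.48.

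Dnajb1, the inducible HSP40 that feeds clients to HSP70, was the strongest cytosolic member by p. Dnajb1 was at 19.7, 16.9, 19.9 and 15.6 FPKM contralaterally and 19.6, 17.8, 16.6 and 16.4 FPKM on the injected side of vehicle mice AH, J, L and M. Dnajb1 in R55 mice AA, AB, P, Q and R was at 19.7, 22.2, 18.5, 22.3 and 17.6 FPKM contralaterally and 20.3, 21.6, 18.9, 21.1 and 20.9 FPKM on the injected side. On the injected side 4 of 5 R55 mice exceeded all 4 vehicle mice, and contralaterally the groups overlapped. The log2 fold change was 0.18 ± 0.07 (adjusted p = 0.552) and 0.15 (adjusted p = 0.361) without the 3 libraries.

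Neuronal immediate early genes were higher beside Dnajb1. All 10 of that list (Fos, Arc, Egr1 and others) had a positive log2 fold change after R55, with a median of 0.41 and 4 at an unadjusted p under 0.05, and none was called. Summed over the list, FPKM ranged from 113 to 329 in vehicle, 133 to 576 in R33 and 248 to 449 in R55 libraries. The medians were 260, 223 and 325 FPKM. The lowest sum was in the contralateral library of vehicle mouse J and the highest in that of R33 mouse AD. Over the 14 mice Dnajb1 correlated with Fos at Pearson's r = 0.759 (permutation p = 0.00155, adjusted over 10 pairs 0.00775) and Spearman's rho = 0.776 (p = 0.00165, adjusted 0.00825). Without the 2 mice farthest from the median of Dnajb1 (M and AD) r was 0.784, and within the 9 mice with 1-letter labels it was 0.660. The part of the immediate early genes in the Dnajb1 difference was not tested.

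Hspa1a and Hspa1b, the inducible HSP70 pair, were low and differed by little in FPKM. Hspa1a was at 2.40, 1.75, 2.18 and 3.07 FPKM contralaterally and 2.58, 2.27, 2.36 and 2.86 FPKM on the injected side of vehicle mice AH, J, L and M. Hspa1a in R55 mice AA, AB, P, Q and R was at 2.51, 3.18, 2.49, 2.74 and 2.92 FPKM contralaterally and 3.73, 3.77, 2.23, 2.59 and 2.61 FPKM on the injected side. The injected sides of mice AA and AB were the highest of all 27 libraries, and the other R55 values lay within the vehicle range or slightly above it. The difference was 0.17 ± 0.08 (adjusted p = 0.589), 0.11 without mouse J and 0.13 (adjusted p = 0.515) without the 3 libraries. Hspa1b had 0.18 ± 0.10 (adjusted p = 0.598), with its 2 highest libraries again the injected sides of AA (3.35 FPKM) and AB (3.24 FPKM).

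**Figure D2:**
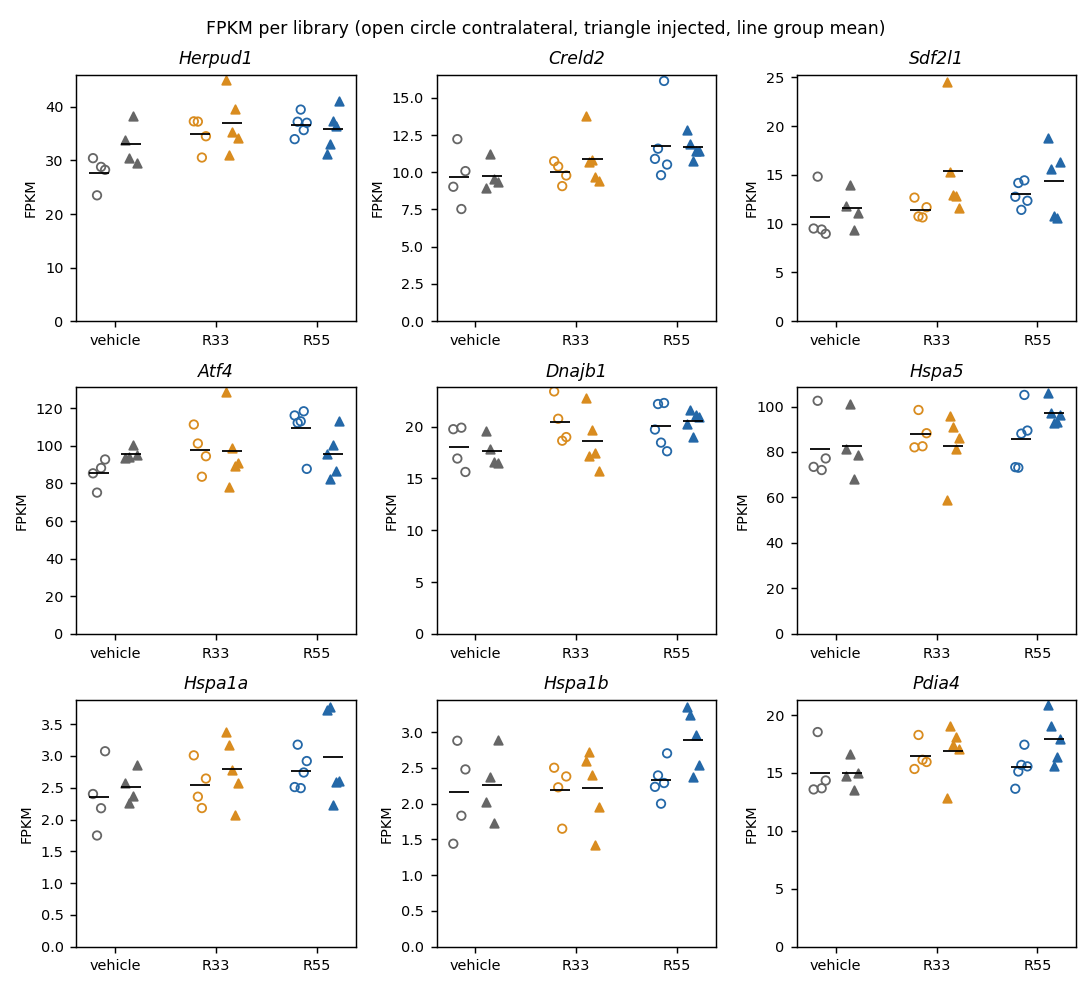
FPKM (vertical axis, from 0) in each library for 9 genes by treatment, with open circles for contralateral hemispheres, triangles for injected ones and a line for the mean of each group. On the contralateral side Herpud1 separates vehicle from R55, as does Atf4 but for mouse R at 87.7 FPKM. The share of all tested genes that do so was not counted. Creld2 and Dnajb1 lean upward on both sides. The injected sides of mice AA and AB are the highest points of Hspa1a at 3.73 and 3.77 FPKM.

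Atf4, the transcription factor that PERK signalling favours, was the only tested member for which every R55 mouse mean lay above every vehicle mouse mean, while 1% of tested genes showed this. That separation rests on the contralateral library of mouse Q, 1 of the 3 that stood apart. Without it mouse Q has only its injected value of 86.3 FPKM, below the highest vehicle mouse mean of 94.3 FPKM. Atf4 was at 85.3, 75.1, 88.2 and 92.7 FPKM contralaterally and 93.7, 94.3, 100.5 and 94.8 FPKM on the injected side of vehicle mice AH, J, L and M. Atf4 in R55 mice AA, AB, P, Q and R was at 116, 112, 113, 118 and 87.7 FPKM contralaterally and 95.8, 82.6, 100.2, 86.3 and 113 FPKM on the injected side. Contralaterally 4 of 5 R55 mice stood above all vehicle mice and mouse R did not, while on the injected side 2 of 5 lay below all vehicle mice. Over both hemispheres the difference was 0.17 ± 0.09 (adjusted p = 0.589), and 0.11 without the 3 libraries. Its targets Ddit3 (0.12 ± 0.10), Chac1, a glutathione-degrading enzyme (0.13 ± 0.09), and Asns, the asparagine synthetase (0.05 ± 0.07), did not pass an unadjusted p of 0.05. FPKM measures RNA, and ATF4 is controlled mainly at translation.

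Hspa5, the central ER chaperone and most used marker of the response, was at 73.5, 102.5, 72.1 and 77.2 FPKM contralaterally and 81.4, 101.3, 68.3 and 78.8 FPKM on the injected side of vehicle mice AH, J, L and M. Hspa5 in R55 mice AA, AB, P, Q and R was at 73.3, 73.1, 88.1, 105.1 and 89.4 FPKM contralaterally and 106.0, 97.0, 92.6, 93.3 and 96.1 FPKM on the injected side. On the injected side all 5 R55 mice exceeded the vehicle mice except J, and contralaterally the groups overlapped. The difference was 0.16 ± 0.10 with a 95% interval of -0.03 to 0.36 (adjusted p = 0.610), and 0.19 (adjusted p = 0.281) without the 3 libraries. Hsp90b1 (0.01 ± 0.09) and Canx (-0.01 ± 0.08), which like Hspa5 carry an ER stress response element, had values near 0 in the same comparison. Xbp1 had 0.13 ± 0.07 (adjusted p = 0.602). FPKM per gene does not separate its spliced from its unspliced RNA.

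Among the members that did not lean upward, Sel1l, the scaffold of the HRD1 ubiquitin ligase, had the lowest fold change at -0.15 ± 0.11 (adjusted p = 0.667), and the injected library of R33 mouse AD stood apart at 17.5 FPKM, with all other libraries at 27.6 to 43.1 FPKM. The abundant cytosolic chaperones Hspa8 (0.01 ± 0.06), Hsp90ab1 (-0.05 ± 0.06), Hsp90aa1 (-0.05 ± 0.07) and Hsph1 (-0.07 ± 0.06) had 95% intervals between -0.20 (Hsp90aa1) and 0.15 (Hspa8). Hspa8 took the opposite sign with the length trend removed (-0.03) and without the 3 libraries (-0.03).

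**Figure D3:**
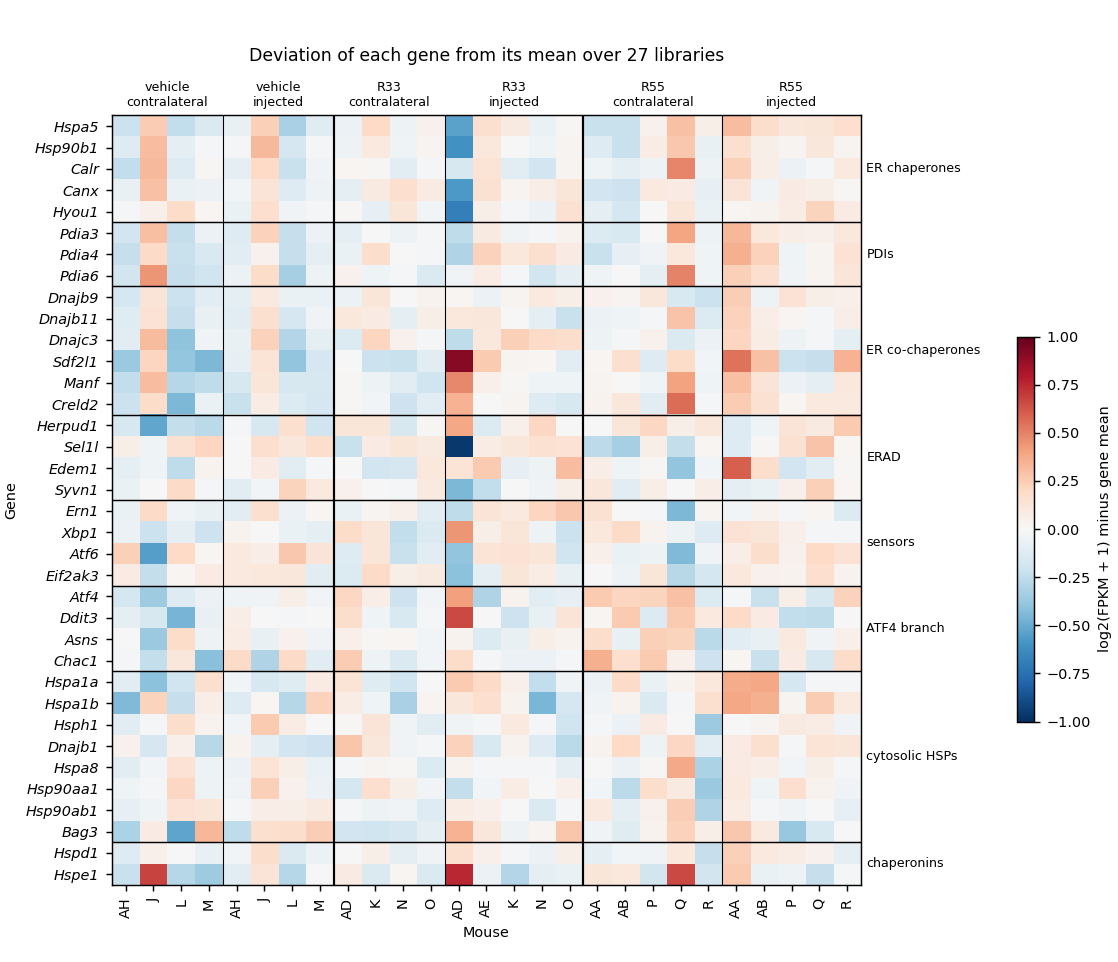
Deviation of log2(FPKM + 1) from each gene's mean over 27 libraries (colour, red above and blue below) for the 36 tested genes by role (rows) and the libraries by treatment and hemisphere (columns, labelled by mouse). In the injected side of mouse AD, ER chaperones such as Hspa5 (58.9 FPKM) are blue while Sdf2l1, Ddit3 and Hspe1 are red.

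Deviations differed most between single libraries, as the heat map shows. In the injected hemisphere of R33 mouse AD, 22 of the 37 genes lay over 0.25 log2 units from their mean, in the contralateral hemisphere of R55 mouse Q 16, in that of vehicle mouse J 14 and in the injected hemisphere of R55 mouse AA 12. In mouse AD deviations leaned downward with gene length. Sdf2l1 (1108 bases) was at 24.5 FPKM, Hspe1 (768 bases) at 72.8 FPKM and Ddit3 (871 bases) at 43.5 FPKM, each the highest of its 27 values, while Sel1l (6300 bases) at 17.5, Hyou1 (4432 bases) at 14.9 and Canx (4289 bases) at 55.9 FPKM were each the lowest of theirs. Length did not order all of them: Hspa5 (2616 bases) at 58.9 and Hsp90b1 (2759 bases) at 80.8 FPKM were also at their lowest, while Bag3 (2593 bases) and Edem1 (5858 bases) lay 0.35 and 0.13 above their means. The Spearman correlation of the members' deviations with gene length was -0.70 in that library, against -0.69 over all tested genes. Tested members were shorter than tested genes in general, with a median length of 2629 against 3149 bases.

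**Figure D4:**
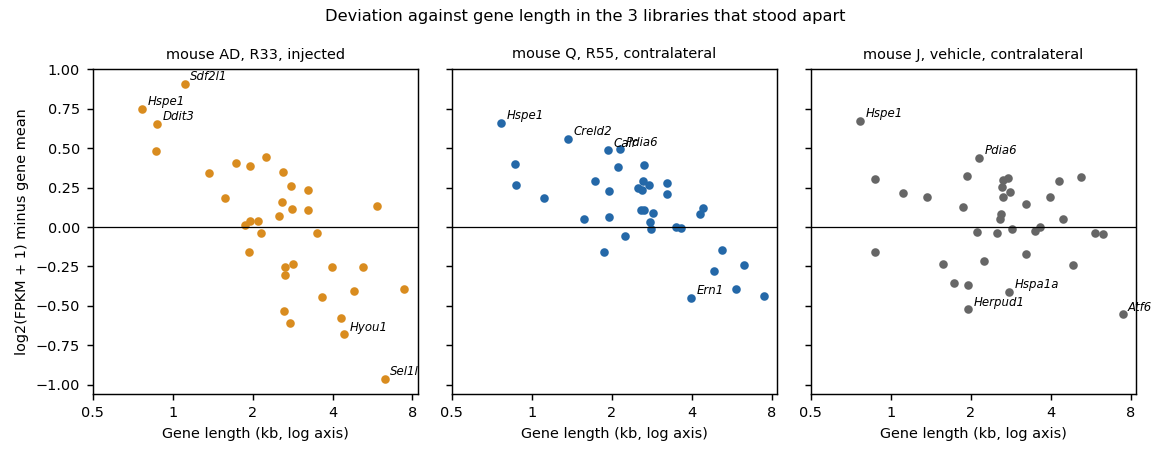
Deviation of log2(FPKM + 1) from the gene mean (vertical axis) against gene length in kb (horizontal log axis) for the 36 tested genes in the 3 libraries that stood apart. Points fall from short to long genes in mice AD and Q, with Spearman correlations of -0.70 and -0.64, and show little slope in mouse J (-0.13).

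R33, the related compound at the same concentration and time, was compared with the same 4 vehicle mice, so its values are not independent of those for R55. No member was called with limma, as was none of all tested genes (0%). Limma with voom weights called none either, and 1 member, Herpud1, had an unadjusted p under 0.05, against 3.19% of tested genes higher and 2.68% lower. By direction 24 of 36 were higher, against 57.5% of tested genes, with a median of 0.04 against 0.02. With the trend on gene length removed 19 of 36 were higher, with a median of 0.02, and with median-of-ratios size factors 21 of 36, against 51.8% of tested genes. Without the 3 libraries 8 were higher at an unadjusted p under 0.05, against 5.67% of tested genes, and 1 lower, against 2.88%, and without mouse J alone the count was 8 (12.8% of tested genes in either direction, against 5.87% with all mice). It was 3 without mouse AD (3.78%) or O (6.95%) and 2 without AH (7.13%) or N (6.54%), and the median was 0.08 without mouse J and 0.01 without mouse L. Between mice with 1-letter labels the median of the members was -0.00205 with 17 of 36 higher, and between those with 2-letter labels it was 0.10 with 27 higher.

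Herpud1 in R33 mice AD, K, N and O was at 37.3, 37.3, 30.6 and 34.5 FPKM contralaterally, and on the injected side of AD, AE, K, N and O at 45.0, 31.0, 35.4, 39.6 and 34.2 FPKM. All contralateral R33 values lay above all contralateral vehicle values, and the injected sides overlapped. The closest contralateral values were 30.6 FPKM in R33 mouse N and 30.4 FPKM in vehicle mouse AH. The share of all tested genes that separated in this way was not counted. The log2 fold change was 0.24 ± 0.08 (adjusted p = 0.834) and 0.16 (adjusted p = 0.547) without the 3 libraries. Sdf2l1 had 0.24 ± 0.13, and 0.22 without the 3 libraries, and Pdia4, an ER disulfide isomerase, 0.14 ± 0.08. Pdia4 was at 0.24 (adjusted p = 0.267) without the 3 libraries, the smallest adjusted p of the members there. Sel1l was again lowest at -0.15 ± 0.12, and at -0.05 without the 3 libraries.

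By role, R33 gave positive values for 3 of 3 disulfide isomerases, 6 of 6 co-chaperones and 4 of 4 tested genes of the ATF4 branch. It did so for 2 of 5 luminal chaperones, 2 of 4 degradation genes, 2 of 4 sensors and 3 of 8 cytosolic chaperones. Pdia3 (0.01 ± 0.08) and Pdia6 (0.01 ± 0.09) were near 0. Between mice with 1-letter labels Pdia3, Pdia6, Dnajb11, Manf and Creld2 were below 0, at -0.05 to -0.000439. Pdia4, Dnajb9, Dnajc3, Sdf2l1 and the 4 tested ATF4 branch genes were above 0 there. Atf4 had 0.09 ± 0.09, and -0.000651 without the 3 libraries. Hspa1b had -0.000916 ± 0.10, with a sign that changed under several alternatives.

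The compounds R55 and R33 were compared directly, as 1 pair at the same concentration and time. No member was called and none had an unadjusted p under 0.05, against 0.732% of tested genes higher and 0.416% lower, and limma with voom weights gave the same member counts. Values were higher after R55 for 28 of 36 members, against 53.4% of tested genes, with a median of 0.03. The widest difference was that of Hspa1b at 0.18 ± 0.09, with a 95% interval of -0.01 to 0.37 (adjusted p = 0.9998), followed by Creld2 at 0.15 ± 0.08 with an interval of -0.02 to 0.32. Herpud1 differed by 0.02 ± 0.07 with an interval of -0.13 to 0.16 and Pdia4 by 0.01 ± 0.07 with an interval of -0.14 to 0.15. A p that misses the threshold does not show that the compounds act alike. Without mouse AD 5 members had an unadjusted p under 0.05 (10.3% of tested genes in either direction, against 1.15% with all mice), without mouse P 2 (2.74%) and without mouse AE 1 (1.36%). Without the 3 libraries Creld2 and Hspa1b were higher and Canx lower at that level, against 2.6% and 1.28% of tested genes. The 10 immediate early genes were all higher after R55 than after R33, with a median of 0.49 and 7 at an unadjusted p under 0.05, none of them called.

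The injected and contralateral hemispheres were compared over the mice of all 3 treatments together. In R33 and R55 mice the injected side also received the compound, so injection and compound cannot be told apart in this comparison. No member was called with limma, as was none of all tested genes (0%), and none with voom weights. With limma 1 member, Edem1, had an unadjusted p under 0.05, against 1.46% of tested genes higher and 2.01% lower. In direction 27 of 36 members were higher on the injected side, against 50.7% of tested genes, with a median of 0.04 against 0.00. Edem1, a lectin that sends misfolded glycoproteins to degradation, had 0.15 ± 0.07 (adjusted p = 0.9999) and was higher on the injected side of 11 of 13 mice, which 1.53% of tested genes reached, and no member was lower in as many, which 1.44% reached. With the mouse as a block it was 0.14 (adjusted p = 0.681), and it was 0.12 without the 3 libraries. The sensor Atf6 had 0.15 ± 0.08, higher in 10 of 13 mice, and was at 0.10 without the 3 libraries. Sdf2l1 had 0.19 ± 0.10, higher in 8 of 13, and 0.20 without them.

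With the mouse as a block, 3 members in place of 1 (Edem1, Sdf2l1 and Xbp1) had an unadjusted p under 0.05, as the share of tested genes in either direction went from 3.47% to 6.13%. In the fit without the block the count was 0 without mouse AA, AB, AE or N (2.29% to 2.72% of tested genes) and 3 without mouse P (4.28%). In that fit without the 3 libraries 8 had one, all higher, against 2.2% of tested genes. Those 8 were Atf6, Hsp90b1, Hspa5, Hspd1, Manf, Pdia3, Pdia4 and Sdf2l1.

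Each hemisphere was also compared alone, with each mouse entering once. In the contralateral hemisphere R55 against vehicle gave 4 members higher at an unadjusted p under 0.05 and 1 lower (Sel1l), against 6.74% and 4.74% of tested genes. The count of 5 was 10 without mouse J, where 19.4% of tested genes in either direction reached that level, and 3 without mouse AA, AB, L or Q (7.62% to 9.74%), and 2 with the length trend removed (6.97%). Without the libraries of J and Q it was 9, with 8 higher against 10.5% of tested genes and 1 lower against 4.34%. Among the 4 were Herpud1 at 0.40 ± 0.09 (adjusted p = 0.357), Atf4 at 0.35 ± 0.11 (adjusted p = 0.366) and Ddit3 at 0.30 ± 0.11 (adjusted p = 0.382). Without the libraries of mice J and Q they were at 0.33, 0.26 and 0.28, with adjusted p = 0.183 for Herpud1. In the injected hemisphere their values were 0.12, -0.01 and -0.06, and 3 other members were higher at an unadjusted p under 0.05, against 0.524% of tested genes: Creld2 (0.24 ± 0.10), Dnajb1 (0.21 ± 0.09) and Pdia4 (0.24 ± 0.11). The count of 3 was 6 without mouse J (1.01% of tested genes in either direction) and 0 without mouse AA (1.11%) or L (0.894%). It was 1 without AB, AH, M or R (0.493% to 2.53%). It was 4 without the library of mouse AD, all higher, against 1.02% of tested genes. The difference between the hemispheres in the effect of R55 was tested itself and was -0.36 ± 0.17 for Atf4, -0.28 ± 0.14 for Herpud1 and -0.36 ± 0.19 for Ddit3, with every adjusted p at 0.999. Without the 3 libraries these values were -0.27, -0.21 and -0.33. At an unadjusted p under 0.05 this was 1 member, lower, against 1.24% of tested genes. With the mouse as a block it was 3 members, all lower, against 5.93% of tested genes in either direction. Without the 3 libraries it was 1 higher (Hyou1) and 1 lower (Ddit3), against 1.15% and 3.95%.

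Ddit3 encodes CHOP, a factor that favours cell death in prolonged ER stress. Ddit3 was at 25.3, 24.3, 19.4 and 25.9 FPKM contralaterally and 28.5, 27.1, 26.9 and 27.4 FPKM on the injected side of vehicle mice AH, J, L and M. Ddit3 in R55 mice AA, AB, P, Q and R was at 27.7, 32.9, 24.7, 32.95 and 29.2 FPKM contralaterally and 31.3, 28.9, 22.9, 22.7 and 27.3 FPKM on the injected side. All 4 vehicle mice had more Ddit3 on the injected side, and 4 of 5 R55 mice had less. Of all tested genes, 57.7% had a higher fitted value on that side in vehicle mice and 45.4% in R55 mice. The share of tested genes with these numbers of mice was not counted.

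**Figure D5:**
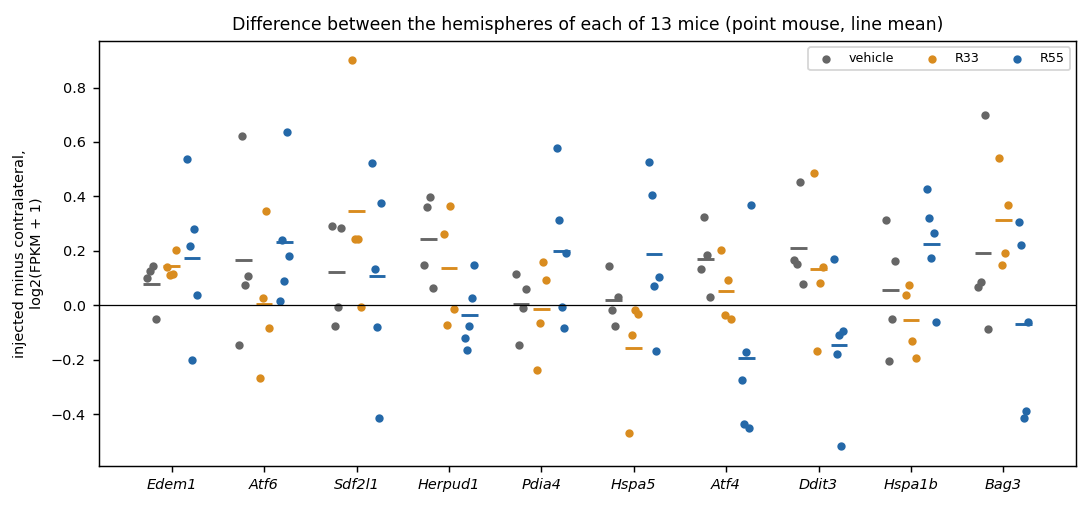
Injected minus contralateral log2(FPKM + 1) (vertical axis) in each of 13 mice for 10 genes, coloured by treatment, with a line at each treatment mean. Herpud1, Atf4 and Ddit3 were above 0 in all 4 vehicle mice, with means of 0.24, 0.17 and 0.21, and had means of -0.04, -0.19 and -0.15 in the R55 mice. The share of all tested genes above 0 in all 4 vehicle mice was not counted.

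Within the vehicle mice neither side received a compound, so the sides differed in the injection without a compound. This comparison does not separate the injection from other differences between the sides, such as left and right, the tissue blocks or the libraries. The part of these was not tested. Herpud1 was higher on the injected side there by 0.24 ± 0.08 (adjusted p = 0.9999, paired within mice) and in 4 of 4 mice. So were Atf4 (0.17), Ddit3 (0.21), Xbp1 (0.11) and Dnajb11 (0.03). In this comparison 57.7% of tested genes were higher, and the share that was higher in 4 of 4 mice was not counted. Herpud1 was the 1 member at an unadjusted p under 0.05 there, against 1.5% of tested genes higher. Without mice J, Q and AD, each of which had 1 library that stood apart, it was at 0.20, Atf4 at 0.12 and Ddit3 at 0.23, and Ddit3 was then the 1 member at that level, against 2.91%. In R33 mice Sdf2l1 (0.35 ± 0.15) and Bag3 (0.31 ± 0.14) had an unadjusted p under 0.05, against 3.57% of tested genes higher. In R55 mice Hspa1b (0.22 ± 0.08), Pdia4 (0.20 ± 0.09) and Dnajb9, an ER J protein (0.13 ± 0.06), had one, against 4.36%. The Sdf2l1 value in R33 mice includes mouse AD, whose difference of 0.90 was the widest, against -0.01 to 0.25 in the other 3. Without those 3 mice Sdf2l1 was at 0.16 and Bag3 at 0.24 in R33 mice, and the 1 member at that level was Ern1, against 2.52%. In the 4 remaining R55 mice 15 of 36 members, all higher, then had an unadjusted p under 0.05, against 3.08% of tested genes higher, and none was called. These included the 5 ER luminal and lectin chaperones (Hspa5, Hsp90b1, Calr, Canx and Hyou1). The disulfide isomerases Pdia3, Pdia4 and Pdia6 were also among them, with Pdia4 at 0.27 (adjusted p = 0.728). Mouse Q, left out after seeing the data, had -0.17 for Hspa5 and -0.50 for Calr, but 0.10 for Hyou1. In mice AA, AB, P and R the difference was 0.53, 0.40, 0.07 and 0.10 for Hspa5. For Pdia4 it was 0.58, 0.31, -0.01 and 0.19, so the values were widest in AA and AB. Without the block the counts of members at an unadjusted p under 0.05 were 1 in R33 mice and 0 in R55 mice, in place of 2 and 3. The shares of tested genes in either direction were then 2.84% and 3.66%, in place of 6.29% and 9.53%. The plot of differences by mouse shows these values together.

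Levels of 10 pairs were correlated over 14 mice, with p-values adjusted over the pairs. Hspa5 and Hsp90b1 had r = 0.885 (permutation p = 2e-05, adjusted 0.0002) and rho = 0.912 (permutation p = 2e-05, adjusted 0.0002), with r = 0.827 without mice L and AD and 0.843 within the mice with 1-letter labels. Hspd1 and Hspe1, which share the promoter region shown above, had r = 0.709 (permutation p = 0.00482, adjusted 0.0116) and rho = 0.732 (permutation p = 0.00379, adjusted 0.0116), with r = 0.790 without mice AH and R and 0.659 within 1-letter labels. Hsph1 and Hsp90aa1 had r = 0.693 (permutation p = 0.0058, adjusted 0.0116) and rho = 0.697 (permutation p = 0.00716, adjusted 0.0143), with r = 0.723 without mice O and R and 0.842 within 1-letter labels. Hsph1 and Hspa8 had r = 0.701 (permutation p = 0.00518, adjusted 0.0116) and rho = 0.666 (permutation p = 0.0113, adjusted 0.0189), with 0.702 within 1-letter labels and only 0.424 without mice O and R, on which that relation rests in part. Hspa1a and Hspa1b, whose fragments may be shared, had r = 0.654 (permutation p = 0.0112, adjusted 0.0187) and rho = 0.723 (permutation p = 0.00463, adjusted 0.0116), with r = 0.867 without mice J and AB and 0.533 within 1-letter labels. The other pairs did not pass. Atf4 and Asns had r = 0.524 and rho = 0.538 (adjusted permutation p = 0.0766 and 0.0719), Hspa1a and Dnajb1 0.394 and 0.354 (0.203 and 0.269), Hspa5 and Xbp1 -0.182 and -0.03 (0.595 and 0.916), and Hspa5 and Hsph1 0.050 and 0.235 (0.865 and 0.467). Without the 3 libraries, r was 0.827 for Hspa5 and Hsp90b1, 0.896 for Hsph1 and Hspa8, 0.753 for Hsph1 and Hsp90aa1, 0.751 for Hspa1a and Hspa1b and 0.770 for Dnajb1 and Fos. For Hspd1 and Hspe1 it was 0.525, and rho was 0.411, so that relation rests in part on those libraries, as Hspe1 was at 72.8, 68.9 and 68.3 FPKM in AD, J and Q. Mice of all 3 treatments were pooled in these values.

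None of the other genes of the same pathways was called in these comparisons. In R55 against vehicle, where 60.2% of all tested genes were higher and 4.71% were higher at an unadjusted p under 0.05, 21 of 27 other ER folding and degradation genes were higher with 0 at an unadjusted p under 0.05, 21 of 22 other integrated stress response genes with 3 (highest Nupr1 at 0.34), and 31 of 35 other cytosolic and mitochondrial chaperone genes with 3. The last list was led by the small heat shock protein gene Hspb6 at 0.38 after R55 and 0.45 after R33. For R33, where 57.5% of all tested genes were higher, the counts were 19 of 27, 15 of 22 and 30 of 35. Cell type markers differed between libraries beside these values: the 6 oligodendrocyte markers summed to 553 to 2641 FPKM, the 6 astrocyte markers to 485 to 1362 FPKM and the 6 striatal neuron markers to 35.7 to 281 FPKM, with none at 0 throughout. By group, the oligodendrocyte sum ran from 553 to 2293 FPKM in vehicle, 1219 to 2641 FPKM in R33 and 963 to 2063 FPKM in R55 libraries. Their part in the differences of the members was not tested.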

How the data were processed

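The authors extracted total RNA from cortex blocks, made stranded mRNA libraries, sequenced paired ends and aligned them to GRCm39 with HISAT2. They deposited FPKM per gene symbol in 1 table, and the counting tool, its annotation and strand setting are not given in the sources used here. The 27 libraries with treatment labels were used, and 5 others in the table were not used here. Every FPKM value above 0 was a whole multiple of 1 fragment within 0.01, so fragments and gene lengths were recovered from the table, and libraries held 15932196 to 38077026 fragments.

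Values were log2(FPKM + 1), so a fold change understates that of low genes. The 12976 genes whose mean reached 1 FPKM were fitted in limma 3.58.1 (R 4.3.3) with treatment and hemisphere as additive factors. Variances were moderated along a trend on the mean level, p-values were adjusted over all 12976 genes by the method of Benjamini and Hochberg, and calls were made at an adjusted p under 0.05. The fit was run on simulated data in which libraries were independent, without pairing of hemispheres or length trends. Its error rates under those features of the data were therefore not checked. Part of the transgene description is not reported here. The members and lists were chosen with earlier results of these data known. Named genes were 11 fixed members and the 3 with the smallest p in each comparison. Hemispheres of 1 mouse are paired by origin: deviations of the same mouse correlated at 0.394 on average (13 pairs, -0.08 to 0.65), those of different mice at -0.11. Correlations over mice used 100000 permutations, two-sided. Mice of a group are separate animals. Motifs were searched in RefSeq windows (GRCm38.p6), and positions and exon overlaps came from the GENCODE annotation of GRCm39. Alternatives were another scaling, pseudocount and filter, within-mouse correlation, 1 value per mouse, the label series as covariate, removal of the length trend, voom weights and leaving out each mouse. Chosen after seeing the data were leaving out 3 libraries and 2 further block fits.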

Additional observations from a re-analysis of the deposited data

Results flagged for a closer look

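In the groups of 4 or 5 libraries, 14 of 108 combinations of named gene and group held 1 value far from the others by Dixon's criterion, which chance meets in about 1 of 20. Of these, 5 lay in the contralateral library of vehicle mouse J, where Hspa5 stood at 102.5 FPKM, Hspe1 at 68.9 FPKM, Sdf2l1 at 14.8 FPKM, Pdia4 at 18.5 FPKM and Pdia6 at 63.2 FPKM, each above the other 3 vehicle mice. In the contralateral library of R55 mouse Q there were 4: Creld2 at 16.1 FPKM and Pdia6 at 65.6 FPKM were above, and Edem1 at 3.68 FPKM and Atf6 at 10.6 FPKM below, the other R55 mice. The injected library of R33 mouse AD held Hspe1 at 72.8 FPKM and Sdf2l1 at 24.5 FPKM, both above. The remaining 3 were Atf4 in the injected side of vehicle mouse L at 100.5 FPKM (above), Atf4 in the contralateral side of R55 mouse R at 87.7 FPKM (below) and Hsp90aa1 in the contralateral side of vehicle mouse L at 179.6 FPKM (above).

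Thus 11 of the 14 lay in the 3 libraries with the widest deviations over all tested genes, and the short gene Hspe1 was high in all 3, at 68.3 FPKM in mouse Q. Atf4 in mouse R is the 1 contralateral R55 value that lay inside the vehicle range.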

How the results depend on the processing

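No member was called under any alternative that was run, with limma or voom weights. The median over the members kept its sign in each fit, except for R33 against vehicle in the injected hemisphere (0.01), where it was -0.00934 with the length trend removed. Between mice with 1-letter labels alone, the R33 median was -0.00205. Directions of single members near 0 changed. For R55 against vehicle, Hspa8 (0.01) was -0.00516 with median-of-ratios size factors, -0.0300 with the length trend removed and -0.0304 without the 3 libraries, and leaving out each mouse gave -0.0367 to 0.0604. For R33 against vehicle, Hspa1b (-0.000916) was 0.00116 with a pseudocount of 0.1, 0.00636 with the within-mouse correlation modelled, 0.00937 with voom weights, 0.0278 with 1 value per mouse and 0.0325 without the 3 libraries, and -0.0734 to 0.0902 leaving out each mouse. Hspe1 (0.06) was -0.0243 with the length trend removed and -0.0510 to 0.213 leaving out each mouse, and Atf4 was -0.000651 without the 3 libraries. Leaving out each mouse also gave -0.0924 to 0.00202 for Hsp90aa1, -0.0160 to 0.162 for Hspa5 and -0.0600 to 0.00121 for Hspa8. For injected against contralateral, Hspe1 (-0.02) was 0.00986 with the length trend removed, 0.00783 with the replicate block and the length trend removed, 0.0430 without the 3 libraries and -0.0656 to 0.04997 leaving out each mouse, and Atf4 was -0.0598 to 0.00590. The cause was not tested. With the mouse as a block the median of the members was 0.04 for injected against contralateral, as without it. Counts at an unadjusted p under 0.05 moved with single mice, as given beside each comparison. Depth limits the low genes most: in the library where each had fewest, Trib3 had 7 fragments, Ern1 90, Hspa1b 97, Chac1 126 and Hspa1a 130. Intervals cover the spread between these libraries only.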
